A study of Homo sapiens with 2 samples.

Results

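The transcription factors and marker genes of epithelial-mesenchymal transition (EMT) were examined in H2228 cells without and with interleukin 4 (IL4). The 10 genes were chosen by name, with earlier results of these data known. They are the EMT transcription factors SNAI1, SNAI2, ZEB1, ZEB2 and TWIST1, and the mesenchymal markers VIM, FN1, CDH2, SPARC and S100A4. All 10 were measured, among 19775 genes in all, by 26 probe sets annotated to only 1 of them. H2228 cells are an established line of human lung adenocarcinoma with the EML4-ALK variant 3 fusion, and the results concern this 1 line only. An Affymetrix U133 Plus 2.0 array was hybridized for each of 2 conditions, no treatment and IL4, the latter at 100 ng/mL for 30 min according to the series description. The sample labels of both also mention a 48 h transfection with plasmids, siRNAs or negative controls, and do not say whether these cells had received one.

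In EMT, epithelial cells lose junctions and keratin-based architecture and gain a motile, matrix-producing state. The zinc finger repressors of the SNAI and ZEB families and the basic helix-loop-helix factor TWIST1 bind E-box sequences and are known to repress the E-cadherin gene CDH1. Vimentin, fibronectin, N-cadherin, SPARC and S100A4 are commonly read as products of the mesenchymal state, and in lung carcinoma lines epithelial and mesenchymal markers are often found together.

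The authors deposited expression on a log2 scale, and every log2 difference below was taken as IL4 minus untreated. With 1 array per condition there were no replicates, so no test was made and no error between cultures can be given. The level for calling a gene higher or lower was 1.5-fold, a log2 difference of 0.585. Of several probe sets for a gene, the one with the highest mean was taken, and a mean under 5.03, the median over the whole array, was regarded as dim. Log2 values of different probe sets cannot be compared with each other. The disagreement within these arrays gave a scale for the differences: over 6056 genes with a second probe set that was not dim, the first and second probe set differed in their log2 differences with a standard deviation of 0.25. This does not measure the variation between cultures.

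The cells carried the markers of an epithelial lung line on both arrays. All 8 epithelial and adenocarcinoma markers lay above the median level, among them EPCAM, an epithelial adhesion molecule, which read 11.80 untreated and 11.62 with IL4. The lung lineage factor gene NKX2-1 was at 7.88 and 6.91, 1.96-fold lower. Its 2 probe sets had log2 differences of -0.97 and -0.32, the second short of 1.5-fold. Of 10 fibroblast markers, 7 were dim, including PDGFRB, LUM and DCN, whereas the collagen gene COL1A1 was at 10.82 and 11.23 and FAP at 6.74 and 7.22. Summed over the fibroblast markers, the level was 11.02 on the log2 scale in untreated cells and 11.41 with IL4, a sum made up mostly of COL1A1. The sums were 7.68 and 7.67 for 8 leukocyte markers and 7.91 and 8.08 for 8 endothelial markers. Since each sum adds different probe sets, a sum can be compared between the arrays but not with that of another list. The leukocyte antigen gene PTPRC was at 2.50 and 2.37. All 10 fibroblast markers are also counted among the further mesenchymal and matrix genes below. Their part in the mesenchymal values below was not tested, and more RNA per cell cannot be told apart from more cells of a kind.

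SNAI2 and FN1 were the members past 1.5-fold, and both were higher with IL4. They make 2 of 10 genes past 1.5-fold in the higher direction and 0 in the lower, where 3.21% of all genes were higher and 4.39% were lower. At 2-fold, SNAI2 alone was higher, against 1.11% of all genes. The median log2 difference of the 10 genes was 0.19, against 0 over all genes. Of the 10 genes, 4 were dim (SNAI1, ZEB2, TWIST1 and CDH2). Among the other 6, 4 differences were above 0 and 2 were below, with a median of 0.22. Of all genes at or above the median level, 4.34% were higher by 1.5-fold and 5.88% lower.

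**Figure D1:**
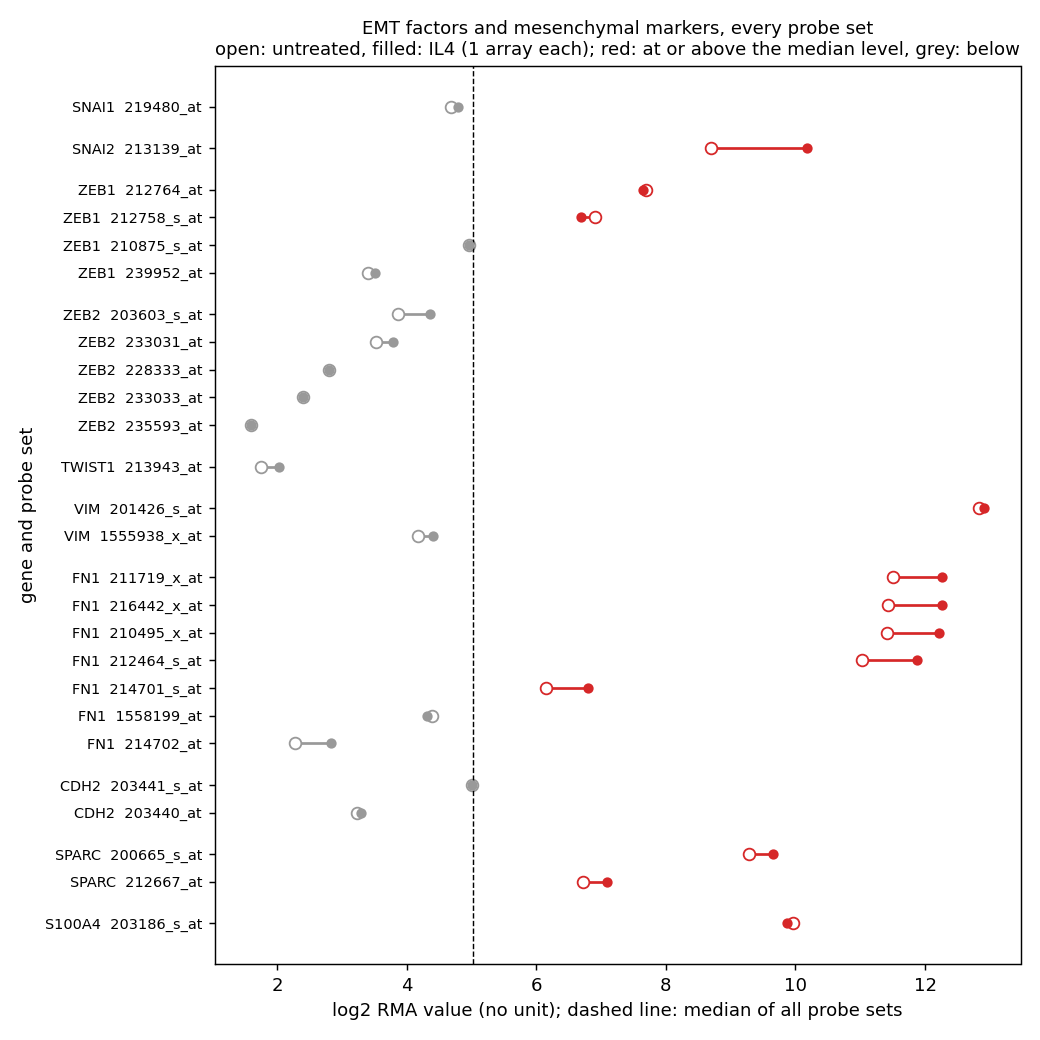
Log2 RMA value (x axis) of the 26 probe sets of the 10 genes (rows) for untreated cells as open circles and IL4 as filled circles. Values compare within a row only. Red rows are at or above 5.03, the median level (dashed line), and grey rows below it; SNAI2 moves from 8.69 to 10.18, and the 5 red rows of FN1 shift to the right together.

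Among the transcription factors, SNAI2 had the clearest difference. SNAI2 encodes Slug, a zinc finger repressor of the SNAI family that is also known from basal epithelial cells and neural crest. Its only probe set read 8.69 on the log2 scale without treatment and 10.18 with IL4. The log2 difference of 1.48 is 2.80-fold, and 83 of 19775 genes (0.42%), SNAI2 included, had a difference at least as high. Genes whose mean lay within 0.5 of that of SNAI2 had log2 differences from -0.63 to 0.63 between the 5th and the 95th percentile, over 1466 genes. Since SNAI2 has 1 probe set, no second probe set could be set beside it.

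SNAI1 and TWIST1 were dim. SNAI1, which encodes Snail, was at 4.69 in untreated cells and 4.80 with IL4, and TWIST1 at 1.76 and 2.03. Their log2 differences of 0.11 and 0.28 come from values that all lie below the median level, and are not given as a fold.

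ZEB1 was measured above the median level and was nearly the same on both arrays. ZEB1 is a zinc finger and homeodomain repressor of epithelial genes. Its brightest probe set was at 7.69 in untreated cells and 7.64 with IL4, a log2 difference of -0.046 that turned to 0.0046 with a loess correction. Another of its probe sets that was not dim was at 6.90 and 6.69, also slightly lower with IL4. Of its dim probe sets, 1 had the same value of 4.96 on both arrays and the other was at 3.40 and 3.51.

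ZEB2, the second factor of this family, had 5 probe sets, and all 5 were dim. The brightest read 3.87 without treatment and 4.36 with IL4, the next 3.52 and 3.79, and the remaining 3 had identical values on both arrays, from 1.60 to 2.81. Averaged over the probe sets, its log2 difference of 0.49 became 0.15. Identical values on both arrays were seen for 4528 of 54675 probe sets (8.28%), of which 3674 were dim. The 5 member probe sets with a log2 difference of exactly 0, in ZEB1, ZEB2 and CDH2, were all dim.

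**Figure D2:**
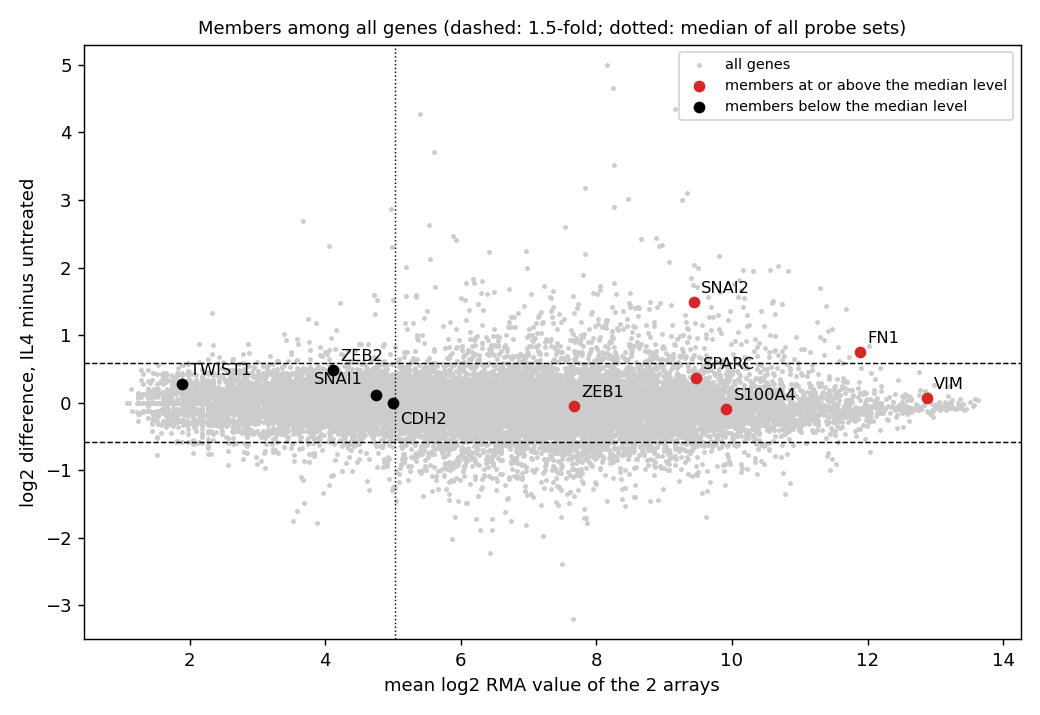
Mean log2 RMA value over both arrays (x axis) and log2 difference, IL4 minus untreated (y axis), with a grey point for each gene; the 10 members are red at or above the median level and black below it. Of the members, SNAI2 at 1.48 and FN1 at 0.76 lie above the upper dashed line of 1.5-fold.

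FN1 was the marker gene with the largest difference. FN1 encodes fibronectin, a matrix glycoprotein bound by integrins, and lies at chr2:215360865-215436068 of GRCh38.p14. The probe set that stood for it read 11.51 without treatment and 12.26 with IL4, a 1.69-fold increase on these arrays. The 5 FN1 probe sets above the median level were all higher, with log2 differences from 0.66 to 0.85 and a median of 0.80, or 1.58-fold to 1.80-fold. Any 2 of these 5 differed by less than 0.25, the standard deviation of the difference between a gene's first and second probe set. However, the 5 probe sets measure the same transcripts on the same arrays and are not replicates. The 2 dim probe sets were at 4.39 and 4.31, and at 2.28 and 2.83. Because the 5 brighter probe sets may bind several transcripts by their design, the log2 difference of FN1 without such probe sets came from the dim probe set and was -0.075. In all, 401 genes (2.03%) had a difference at least as high as the 0.76 of FN1, and genes within 0.5 of its mean ranged from -0.42 to 0.40 between the 5th and the 95th percentile.

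SPARC was slightly higher on both of its probe sets but did not reach 1.5-fold. SPARC encodes a collagen-binding matricellular glycoprotein. Its brighter probe set went from 9.29 without treatment to 9.65 with IL4, and the other from 6.71 to 7.08. The log2 differences of 0.36 and 0.37 differ from each other by far less than the 0.25 between probe sets in general. Genes at a level like that of SPARC ranged from -0.62 to 0.62 between the 5th and the 95th percentile, so the difference lay well within their spread.

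Vimentin and S100A4 were expressed but hardly differed. VIM, which encodes the intermediate filament protein of mesenchymal cells, was at 12.84 in untreated cells and 12.91 with IL4, a log2 difference of 0.072 near the highest values of the array. Its other probe set was dim, at 4.17 and 4.41. S100A4, a calcium-binding protein of motile cells, was at 9.97 and 9.87, a log2 difference of -0.093. CDH2, the N-cadherin gene, was dim on both probe sets, at 5.00 on both arrays and at 3.23 and 3.29. The higher FN1 value was thus not accompanied by a difference of 1.5-fold in VIM, S100A4 or SPARC.

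The promoter sequences of FN1, past 1.5-fold, and S100A4, with nearly the same value on both arrays, are shown as 1 gene that differed and 1 that did not reach 1.5-fold, each with a motif that was searched for; entries of ZEB1 and CDH2 also held such motifs. The RefSeq table of GRCh38.p14 had promoter entries for 7 of the 10 genes, ZEB1, ZEB2, VIM, FN1, CDH2, SPARC and S100A4, with 14 entries in all. Each stretch is the 250 bases before the annotated start, written 5′ to 3′ along the gene, for FN1 on the minus strand at chr2:215436069-215436318 and for S100A4 on the minus strand at chr1:153545807-153546056. Capitals mark the motifs found:
FN1: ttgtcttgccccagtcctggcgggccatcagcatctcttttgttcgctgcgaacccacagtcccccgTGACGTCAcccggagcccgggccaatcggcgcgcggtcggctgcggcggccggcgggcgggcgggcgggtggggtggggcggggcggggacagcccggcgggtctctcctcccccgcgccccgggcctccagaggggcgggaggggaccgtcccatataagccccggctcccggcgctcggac
S100A4: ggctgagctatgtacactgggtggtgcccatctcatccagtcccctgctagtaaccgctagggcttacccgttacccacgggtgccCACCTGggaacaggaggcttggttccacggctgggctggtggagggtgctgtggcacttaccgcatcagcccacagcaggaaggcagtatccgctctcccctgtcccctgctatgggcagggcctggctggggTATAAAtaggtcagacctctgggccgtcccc
The capitals of FN1 are the cyclic AMP response element TGACGTCA, which starts 183 bases before the annotated start and is found in 1.65% of 35116 promoter entries over the same length. Those of S100A4 are the E-box CACCTG, the kind bound by SNAI and ZEB factors, at 164 bases and a TATA box, TATAAA, at 31 bases before the start. The E-box CACCTG or its reverse complement CAGGTG was found in 17.5% of all entries and the TATA box in 10.7%.

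Both strands were searched for these motifs, for the AP-1 motif TGANTCA, and for the STAT half-sites TTC and GAA, in this order, with 4 bases between them, as STAT6 prefers, or with 3. CACCTG is also 1 form of the general E-box CANNTG, which is found in 61.8% of all entries and is not capitalized. The STAT half-sites were found in 5.38% (4 bases) and 6.57% (3 bases) of all entries and in 0 of the 14 of the members. Several of the 14 are neighbouring starts of ZEB1, so few genes were searched. SNAI1, SNAI2 and TWIST1 had no entry and were not searched, so nothing is known here of such sites at SNAI2. AP-1 (6.57% of all entries) was found in 1 entry of CDH2, as TGAATCA, and the same entry held a TATA box 32 bases before its start. The E-box of the SNAI and ZEB type was also found in 2 of the ZEB1 entries. In VIM and SPARC none of these motifs was found apart from a general E-box in SPARC, CAGATG. A match is only a run of letters, and no factor binding was measured.

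Further EMT-linked transcription factors were set beside the members. Of 17 measured genes, 2 were higher by 1.5-fold or more and 1 was lower, where 3.21% of all genes were higher and 4.39% lower. Their median log2 difference was 0.10. ETS1, an ETS family factor of invasive cells, was at 9.33 in untreated cells and 11.29 with IL4, or 3.88-fold higher, and its 3 probe sets had differences from 1.54 to 2.30. HMGA2, a chromatin protein that takes part in SNAI1 induction by TGF-beta, was at 8.46 and 9.47, or 2.02-fold higher. Averaged over its 9 probe sets, it had a log2 difference of 0.577, just short of 1.5-fold. TCF4, the E-protein E2-2 and a partner of basic helix-loop-helix factors, was at 8.69 in untreated cells and 6.99 with IL4, or 3.25-fold lower, and all 8 of its probe sets were lower, from -1.74 to -0.91. TWIST2, the close relative of TWIST1, was above the median level at 8.27 and 8.25.

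Genes of the matrix and of mesenchymal cells beyond the members had differences mostly above 0. Of 28 measured, 7 were higher by 1.5-fold or more and 0 were lower, where 3.21% of all genes were higher and 4.39% lower. Their median log2 difference was 0.39, against 0 over all genes. The list holds all 10 fibroblast markers, 7 of them dim, which had a median of 0.086. CCN2, the connective tissue growth factor gene, was at 6.73 in untreated cells and 8.93 with IL4, or 4.59-fold higher, on its only probe set. LOX, the lysyl oxidase that crosslinks collagen, was at 9.68 and 11.69, or 4.05-fold higher, with its 3 probe sets between 1.84 and 2.43. The actin-binding gene TAGLN was at 5.41 and 7.21, or 3.50-fold higher, with an untreated value not far above the dim level of 5.03. Tenascin-C (TNC) and the collagen VI genes COL6A1 and COL6A2 were 1.95-fold, 1.85-fold and 1.56-fold higher. Their untreated values were 8.89, 7.75 and 5.83. Averaged over their probe sets, TNC, COL6A1 and COL6A2 had log2 differences of 0.41, 0.45 and 0.51, and the TAGLN probe sets ranged from 0.18 to 2.41. The average went the other way for COL5A1, a collagen V gene, and CD44, a hyaluronan receptor gene, which had 0.51 and 0.37 on the probe set taken and 0.86 and 0.68 averaged, so that 5 of the 28 genes were past 1.5-fold by the average. COL3A1, the seventh gene, was dim at 3.67 and 4.45.

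Of 31 measured epithelial junction, keratin and epithelial factor genes, all above the median level, 5 were higher by 1.5-fold or more and 2 were lower, with a median log2 difference of 0.063. Among all genes at or above the median level, 4.34% were higher and 5.88% lower. CDH1, the E-cadherin gene repressed by SNAI and ZEB factors, was at 10.18 in untreated cells and 10.92 with IL4, and both of its probe sets were higher, by 0.69 and 0.75 on the log2 scale. SNAI2 and CDH1 were thus both higher on the same array. The P-cadherin gene CDH3 was at 10.01 and 11.47, or 2.76-fold higher, on its only probe set. The tight junction gene CLDN1, plakoglobin (JUP) and the protease gene ST14 were 3.90-fold, 1.78-fold and 1.51-fold higher. JUP had a single probe set, and ST14 had 0.37 averaged over its probe sets. The epithelial factor gene ELF3 was at 8.25 in untreated cells and 6.89 with IL4, or 2.55-fold lower. ESRP1, an epithelial splicing regulator, was at 8.68 and 7.96, or 1.65-fold lower.

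**Figure D3:**
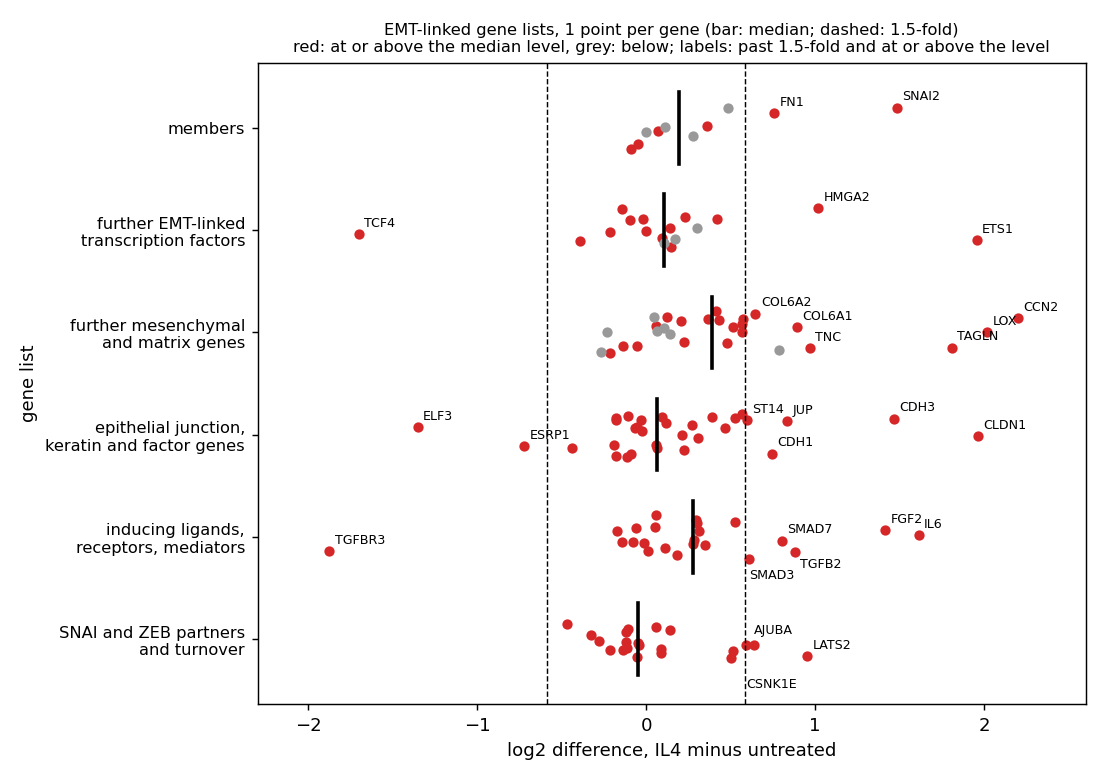
Each point is 1 gene, placed by its log2 difference, IL4 minus untreated (x axis), in the row of the 10 members or of 1 of 5 lists of EMT-linked genes, with random vertical offsets. Black bars show medians, and 1.5-fold is dashed; the further mesenchymal and matrix genes have the median farthest to the right, 0.39, and the epithelial genes have points past both lines.

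Of 23 ligands, receptors and mediators of signals linked to EMT, 5 were past 1.5-fold higher and 1 was past 1.5-fold lower. The list also holds inhibitors such as SMAD7 and BMP7, and its median log2 difference was 0.28. All 23 lay at or above the median level, where 4.34% of genes were higher and 5.88% lower. TGFB2, a TGF-beta ligand, was at 9.96 in untreated cells and 10.83 with IL4, or 1.84-fold higher, and its 5 probe sets had differences from 0.85 to 1.73. The growth factor gene FGF2 was at 8.18 and 9.60, or 2.66-fold higher. The cytokine gene IL6, with a single probe set, was at 6.23 and 7.85, or 3.06-fold higher. SMAD3, which transmits TGF-beta signals, and SMAD7, which inhibits them, were 1.53-fold and 1.75-fold higher. SMAD7 had a single probe set. TGFBR3, a TGF-beta coreceptor, was at 7.22 and 5.34, or 3.67-fold lower. TGFB1 and TGFB3 were at 5.89 and 6.42, and at 5.61 and 5.60. The 2 probe sets of TGFB1 had log2 differences of 0.52 and -0.089.

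Of 21 measured partners and turnover factors of SNAI and ZEB proteins, 3 were past 1.5-fold higher and 0 past 1.5-fold lower. Their median log2 difference was -0.052. All 21 lay at or above the median level, where 4.34% of genes were higher and 5.88% lower. The 3 higher genes were the kinase genes LATS2 (1.93-fold) and CSNK1E (1.51-fold) and AJUBA (1.55-fold), a SNAI-binding corepressor. None of the 3 reached 1.5-fold when averaged over its probe sets, where LATS2, CSNK1E and AJUBA had log2 differences of 0.35, 0.45 and 0.583. AJUBA thus fell only just short of the level of 0.585. GSK3B, the kinase that marks Snail for degradation, was at 8.86 and 9.38, but its 5 probe sets had log2 differences from -0.44 to 0.59.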

How the data were processed

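Untreated and IL4-treated H2228 cells were each profiled on 1 array. Per the labels, RMA (no version given) was used, and the authors deposited 1 log2 value per probe set and array. GCOS is named in the paper for the raw data. Scanner files were not used here, and the authors' background correction and normalization were taken as they are. RMA compresses differences of weakly expressed genes.

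Of 54675 probe sets, 41097 carried 1 gene, and 41043 of them were brought to the current symbol through the RefSeq table of GRCh38.p14. The members and gene lists were chosen with earlier results of these data known. Genes named beyond the members are those past 1.5-fold and at or above the median level, up to 6 per list and direction; the cell type markers were named to check the label of the cells, and TWIST2, TGFB1, TGFB3, GSK3B, BMP7, COL3A1, COL5A1, CD44, CDH11 and the relatives in the closing section after their values were seen. Some genes of the lists are not reported here. Alternatives were the mean over probe sets, leaving out probe sets ending in _s_at or _x_at, quantile normalization, a loess correction (fraction 0.3), median centring, floors on the level and a 2-fold level. The calculation was tested on simulated data with planted differences of 2-fold or more and little noise. This checks the code only and not the calls made on these arrays. Python 3.11.15, numpy 2.4.6, pandas 2.3.3, statsmodels 0.14.6 and matplotlib 3.10.9 were used.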

Additional observations from a re-analysis of the deposited data

How the results depend on the processing

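With 1 array per condition no replicate could be left out, and the number of arrays limits the precision. No paired analysis was possible because each condition has 1 array. The count of 2 higher members was kept with quantile normalization, a loess correction, both floors and the mean over probe sets, and the median log2 difference of the members ranged from 0.15 to 0.22. Centring changed no value, since the median difference was 0. SNAI2 ranged from 1.48 to 1.55. The further mesenchymal genes that were higher rose in number from 7 to 10 with quantile normalization and with the loess correction, and the epithelial genes from 5 to 7 with the loess correction. Without probe sets ending in _s_at or _x_at, 1 member was higher among 8 measured, and FN1 turned to -0.075, the value of a dim probe set; 4 further mesenchymal genes and 3 epithelial genes were higher, of 22 and 23 measured. At 2-fold, 1 member, 3 further mesenchymal genes, 2 epithelial genes, 2 ligands, receptors and mediators and 0 partners were higher, and 1 epithelial gene was lower. With the mean over probe sets, 1 further transcription factor and 0 partners were higher and 1 partner was lower. With a floor at the 75th percentile, 4 further mesenchymal genes were higher and 0 ligands, receptors and mediators were lower, since fewer genes were counted. The cause of the other changes was not tested.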

Other observations

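Relatives of the members were listed after the members' values were seen. Of 16 S100 genes beyond S100A4, 2 reached 1.5-fold higher and 0 reached 1.5-fold lower, where 3.21% of all genes were higher and 4.39% lower. They were S100A8 and S100A9, which encode the subunits of calprotectin, at 6.11 and 8.55 in untreated cells and 6.97 and 9.21 with IL4. S100A9 had a single probe set. Of the same family, S100A2 and S100A6 were at 11.87 and 13.10 in untreated cells and 12.03 and 13.06 with IL4. Of 6 genes of the SPARC family, 6 intermediate filament genes related to VIM and 10 further cadherin genes, 0 reached 1.5-fold. This cadherin list does not hold CDH3, which was 2.76-fold higher and was counted with the epithelial genes. Synemin (SYNM), an intermediate filament gene, was at 8.45 and 7.91, and ZEB1-AS1, the antisense RNA gene beside ZEB1, was dim at 4.52 and 4.29. In the further mesenchymal list, CDH11, a cadherin of mesenchymal cells, was at 11.40 in untreated cells and 11.53 with IL4, whereas 9 of the 10 further cadherin genes were below the median level on both arrays.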
